A study of Mus musculus with 17 samples.

Results

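Immunoglobulin genes encode the antibodies that B cells carry on their surface and plasma cells secrete. They were taken from the deposited gene table as every row whose biotype was immunoglobulin constant, variable, joining or diversity gene, together with Jchain. This gave 111 of the 31245 genes of the table: 11 constant genes, 99 variable genes (51 heavy, 45 kappa, 3 lambda) and Jchain. The table held 0 rows of joining or diversity genes, and the lowest total of any of its rows was 10 counts. The genes were measured by RNA sequencing in the lungs of 17 mice, each library being 1 mouse. Mice were placed on a custom diet at 6 weeks of age and drank sucrose water alone (vehicle) or with 6.2 μg/mL perfluorooctanoic acid (PFOA, the Hi-PFOA label), a long-chain perfluorinated surfactant, for 14 weeks. PFOA activates PPARα, a lipid-sensing nuclear receptor, and the mice differed in it: wildtype (WT) Sv/129 mice were bought, whereas PPARa KO (KO) and hPPARa KI (KI, carrying the human receptor) mice were bred from PPARα null and human PPARα heterozygous pairs. The groups held 2 WT vehicle mice (1 female, 1 male), 3 WT PFOA mice (1 female, 2 male), 3 KO vehicle and 3 KO PFOA mice (6 of 6 female), and 3 KI vehicle and 3 KI PFOA mice (each 2 female and 1 male). Genotype and mouse source therefore cannot be told apart, males labelled KO were not measured, and p-values measure the spread between these mice. The study left out a further WT vehicle library for RNA quality. Libraries are named by genotype, exposure and mouse number.

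An antibody is built of paired heavy and light chains. During B cell development a variable segment is joined to shorter segments upstream of a constant gene, so each B cell clone transcribes its own combination of variable genes. Naive B cells co-express IgM and IgD, and activated cells may switch to IgG or IgA. Plasma cells transcribe these genes at far higher levels than resting B cells, and Jchain encodes the joining chain that links IgM pentamers and IgA dimers. In lung, such RNA can come from B cells in the tissue or its vessels, from lymphoid aggregates along the airways and from plasma cells under the airway epithelium. In whole lung RNA, more cells of a type and more RNA per cell cannot be told apart.

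The libraries held 4116116 to 9237385 counts, and 3 counts corresponded to 0.319 to 0.691 CPM (counts scaled to a common library total with TMM factors) depending on the library. Markers of alveolar, airway and endothelial cells of the lung were present in 17 of 17 libraries, from a lowest value of 64.0 CPM for Cldn5 to a highest of 21353 CPM for Scgb1a1. The targeted gene went against the KO label: Ppara was at 4.39 to 7.21 CPM in the 5 WT libraries, 8.82 to 11.7 CPM in the 6 libraries labelled KO and 9.08 to 20.4 CPM in the 6 KI libraries, so that every library labelled KO lay above every WT library. A gene-level count does not resolve the targeted exon, and KO is used below as a label. WT vehicle 122 and KO vehicle 137 stood apart with 65.3% and 61.3% of counts in protein-coding genes, against 74.4% to 80.4% in the other 15 libraries.

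Immunoglobulin RNA was scarce in these lungs. The 111 genes took 282 to 3232 counts per library, or 59.2 to 410 CPM summed, and 66 of the 111 genes passed the filter of 20 counts over the 17 libraries (11 of 11 constant genes, 54 of 99 variable genes, and Jchain). Per kilobase of annotated exon, the mean level over the 17 libraries was highest for Igkc, the kappa light chain constant gene, at 70.3 CPM per kb. Ighm, the IgM heavy chain, followed at 21.9 CPM per kb, and Ighd, the IgD heavy chain, at 8.22 CPM per kb. The lambda constant genes Iglc2, Iglc3 and Iglc1 stood at 5.27, 5.08 and 2.21 CPM per kb, Igha, the IgA heavy chain, at 5.13 CPM per kb, and Jchain at 2.76 CPM per kb. The IgG heavy chains were lowest, with Ighg1 at 2.07, Ighg2c at 1.44, Ighg2b at 0.716 and Ighg3 at 0.387 CPM per kb. The exon models behind these values differ in extent, with 1326 bases for Ighg2c against 2512 to 2678 bases for the other IgG genes.

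**Figure D1:**
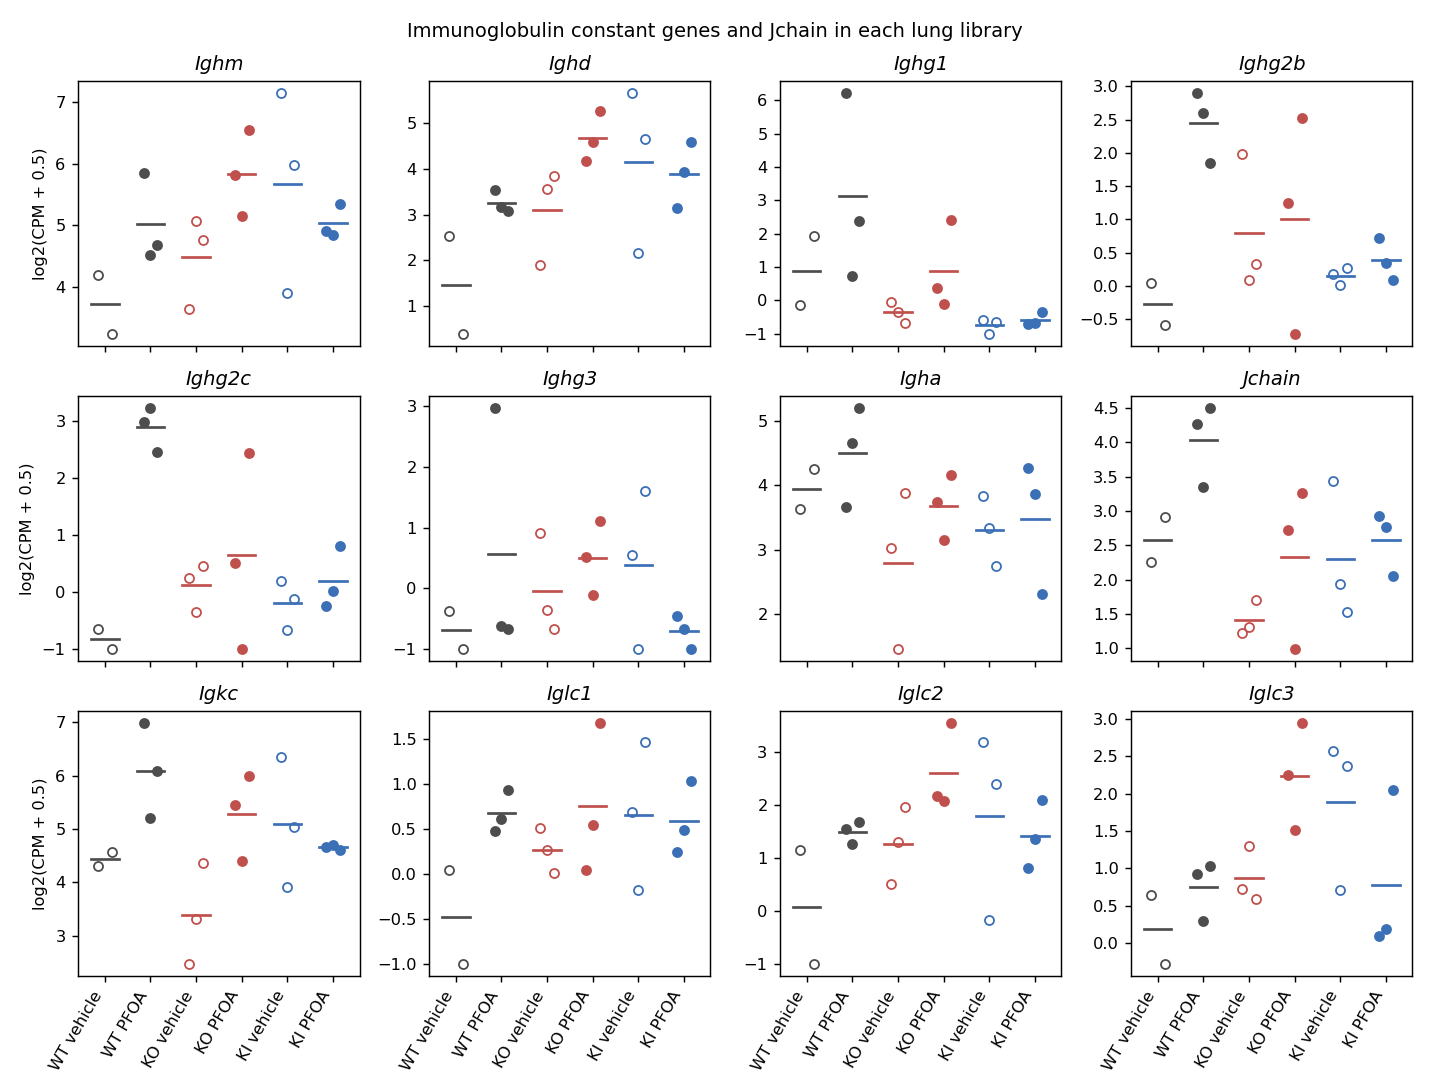
Levels of the 11 constant genes and Jchain as log2(CPM + 0.5) in each of 17 lung libraries, by genotype (grey WT, red KO, blue KI) and exposure (open vehicle, filled PFOA); bars are group means of the log2 values. The 3 WT PFOA libraries lie above both WT vehicle libraries for Ighm, Ighd, Ighg2b, Ighg2c, Igkc, Iglc1, Iglc2 and Jchain.

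In WT lungs, every one of the 11 constant genes and Jchain had a higher fitted mean with PFOA than with vehicle. The IgG genes differed most, but no immunoglobulin gene passed the edgeR test. A gene was called at an adjusted p under 0.2 and a change over 2-fold. With edgeR's quasi-likelihood test, 0 of 66 immunoglobulin genes and 0.0% of all 26946 tested genes were called in WT. At an unadjusted p under 0.05, 15 of 66 were higher and 0 lower, where 3.12% of all tested genes were higher at that level. The median log2 fold change of the 66 genes was 1.75, against 0.04 over all tested genes, and 56 of 66 were above 0. With DESeq2 on the same counts, 1 of 66 was called (Ighg2c), beside 0.0891% of all tested genes. The paper, which used DESeq2, lists Ighg2c and Ighg2b among the genes higher with PFOA in WT. In 22 of the 66 genes, 8 of them constant genes or Jchain, every PFOA library lay above both vehicle libraries, a pattern that 11.6% of all tested genes showed in this direction, and in 0 of 66 every PFOA library lay below, as it did in 10.9% of all tested genes. Without WT vehicle 107, which leaves 1 WT vehicle library assumed to vary like the other groups, 5 of 66 were called by edgeR (Ighg2b, Ighg2c, Ighv5-6, Ighv9-3 and Iglc1), but so were 6.25% of all tested genes.

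Igkc stood at 19.3 and 23.3 CPM in WT vehicle 107 and 122, and at 126, 36.3 and 67.5 CPM in WT PFOA 50, 56 and 65. The 3 exposed lungs were all above both vehicle lungs, in the female pair (107 and 50) as in the males, and the log2 fold change was 1.85 ± 0.62 (SE) with an adjusted p of 0.535 by edgeR. Ighm was at 17.8 and 9.01 CPM with vehicle and at 57.3, 22.4 and 25.3 CPM with PFOA, a log2 fold change of 1.37 ± 0.68 (adjusted p = 0.682). Jchain followed the same order of groups, with 4.26 and 7.04 CPM with vehicle and 18.8, 9.65 and 22.1 CPM with PFOA (log2 fold change 1.59 ± 0.60, adjusted p = 0.566). Igha, whose product is secreted onto mucosal surfaces, overlapped between the groups: it was at 11.9 and 18.5 CPM with vehicle and at 12.2, 24.7 and 36.2 CPM with PFOA (log2 fold change 0.69 ± 0.58, adjusted p = 0.819).

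Ighg2c showed the clearest separation. It had 1 and 0 counts in WT vehicle 107 and 122 and 59, 61 and 39 counts in WT PFOA 50, 56 and 65, that is 0.13 and 0.00 CPM against 7.48, 8.92 and 5.01 CPM. Each exposed lung was above both controls, and the ratio of the rates was 96.1 with a 95% counting interval of 17.01 to 3821, set by the single vehicle count and covering counting error only. The fitted log2 fold change was 6.31 ± 1.42 with an adjusted p of 0.386 by edgeR, and 6.61 with an adjusted p of 0.135 by DESeq2. Ighg2b had 4 and 1 counts with vehicle and 55, 38 and 24 counts with PFOA, a rate ratio of 14.1 (5.89 to 44.4) and a log2 fold change of 3.78 ± 1.08 (adjusted p = 0.477 by edgeR). Both genes varied together over the 17 libraries, with a Spearman correlation of 0.84 and a Pearson correlation of 0.91 of log2 CPM, given as a description of libraries that share scaling.

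The IgG constant genes arose by duplication, and reads can be split between them. Over their coding sequence Ighg2b (chr12:113302965-113307933) and Ighg2c (chr12:113285325-113288932, both mm10, minus strand) were 85.9% identical, and their longest common run was 78 bases, shorter than the average trimmed read of 80 bases. An aligned block of 120 coding bases of both genes follows 5′ to 3′. This block is more alike than the coding sequences as a whole. Capitals mark the base that differs.
Ighg2b (chr12:113306904-113307023, strand -): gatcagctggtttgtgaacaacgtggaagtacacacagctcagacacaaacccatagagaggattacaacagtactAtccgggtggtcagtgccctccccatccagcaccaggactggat
Ighg2c (chr12:113287904-113288023, strand -): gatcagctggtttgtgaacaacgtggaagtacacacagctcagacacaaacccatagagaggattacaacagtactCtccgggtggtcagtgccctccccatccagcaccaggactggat
Other pairs of IgG genes were 75.3% to 77.4% identical. The reference is C57BL/6J, and mouse strains differ in which IgG2 gene they carry at this locus. The Ighg2c row therefore means reads assigned to that locus in these mice. The paper names Sv/129 for the WT mice only. Only a single base separates the pair over this stretch. No window of 80 bases is common to their annotated coding sequences, so a read of that length cannot match both without mismatch. That holds for the reference sequence, and not for shorter reads or reads with a mismatch.

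Ighg1 and Ighg3 rested on a single mouse. Ighg1 had 3 and 20 counts in the WT vehicle libraries and 582, 8 and 37 counts in WT PFOA 50, 56 and 65, so that the groups overlapped, and its log2 fold change of 3.91 ± 1.26 (adjusted p = 0.507 by edgeR) became 0.72 without WT PFOA 50. Ighg3 had 2 and 0 counts with vehicle and 58, 1 and 1 counts with PFOA. WT PFOA 50 alone held 82.8% of the Ighg1 counts of all 17 libraries, and without it the Ighg3 log2 fold change moved from 4.0 to -0.04.

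The same library was dominated by 1 heavy and 1 kappa variable gene. Ighv5-6 had 205 counts there, against 0 to 12 counts in each of the other 16 libraries, and took 59.9% of the heavy variable counts of that library (exact binomial 95% interval 54.5% to 65.2%). Its share in the other libraries reached at most 15.8%, in KI PFOA 57. Igkv3-12 had 124 counts in WT PFOA 50, which were 39.6% of the kappa variable counts (34.2% to 45.3%), and 7 counts in the other 16 libraries together. With the 0 counts of the WT vehicle libraries set to a floor of 3 counts over the group, Igkv3-12 was 25.2-fold higher over the WT PFOA libraries. The 95% counting interval of its rate ratio started at 20.2. However, 124 of its 125 counts with PFOA came from that 1 mouse. Rag1, a recombinase subunit of developing lymphocytes, had 35 counts in WT PFOA 50 and 0 to 17 counts in the others, and the part of this in the immunoglobulin result was not tested.

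The germline segments of the gene pairs that dominated single libraries follow as the last 150 coding bases of each, 5′ to 3′ from mm10. Capitals mark the germline bases from the conserved cysteine codon, which lies just before the third complementarity-determining region, to the end of the segment. This end is joined to the next segment in a B cell.
Ighv5-6 (chr12:113625506-113625655, strand -): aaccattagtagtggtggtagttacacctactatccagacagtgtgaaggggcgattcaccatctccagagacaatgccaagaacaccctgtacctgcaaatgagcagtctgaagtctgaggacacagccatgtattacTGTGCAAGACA
Igkv3-12 (chr6:70518700-70518849, strand +): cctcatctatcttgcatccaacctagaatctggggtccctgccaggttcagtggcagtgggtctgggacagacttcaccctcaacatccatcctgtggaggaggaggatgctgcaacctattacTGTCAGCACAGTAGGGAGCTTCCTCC
Ighv11-2 (chr12:114048241-114048390, strand -): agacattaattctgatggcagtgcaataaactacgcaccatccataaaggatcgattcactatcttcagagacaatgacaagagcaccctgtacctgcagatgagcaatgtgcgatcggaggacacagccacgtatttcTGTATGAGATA
Igkv14-126 (chr6:67896493-67896642, strand +): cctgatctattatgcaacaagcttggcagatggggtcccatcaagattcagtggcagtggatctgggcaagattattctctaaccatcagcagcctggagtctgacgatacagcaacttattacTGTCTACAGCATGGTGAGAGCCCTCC
The heavy segments ended with 11 and the kappa segments with 26 bases in capitals. Ighv5-6 and Igkv14-126 shared 0% of their windows of 80 bases with any other annotated transcript, whereas Ighv11-2 shared 22.5% (with Ighv11-1) and Igkv3-12 shared 22.1% (with Igkv3-10, Igkv3-4 and Igkv3-7), so part of their reads could be assigned to relatives.

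**Figure D2:**
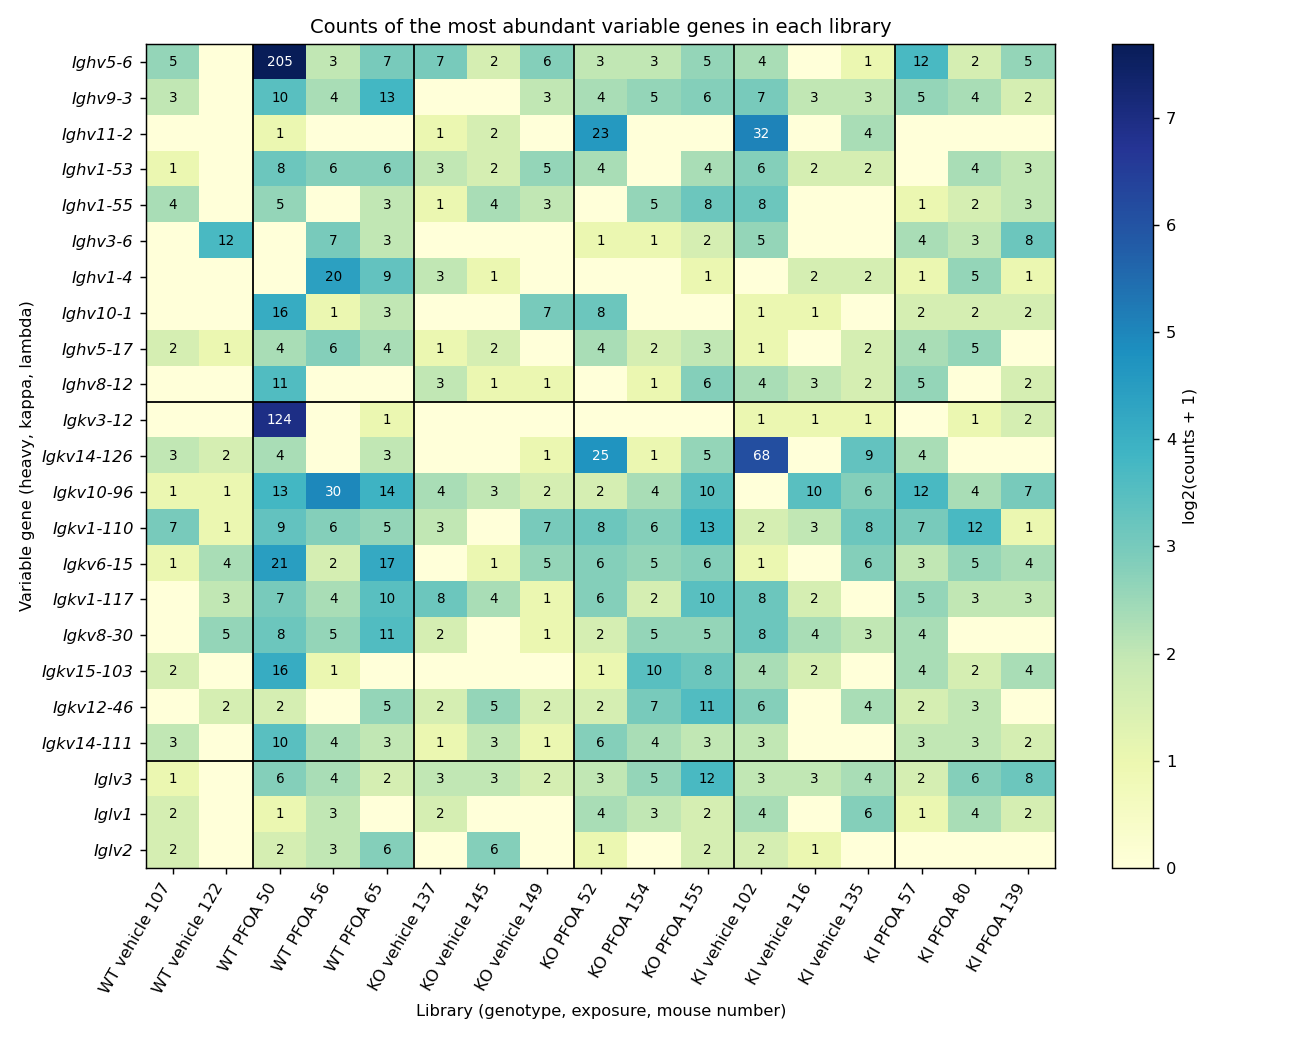
Counts of the 10 heavy, 10 kappa and 3 lambda variable genes with the highest totals in each of 17 libraries; colour is log2(counts + 1), printed figures are counts and empty cells are 0. Ighv5-6 and Igkv3-12 reach 205 and 124 counts in WT PFOA 50, and Ighv11-2 and Igkv14-126 stand out together in KO PFOA 52 and KI vehicle 102.

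In the mice labelled KO, Igkc, Ighm and Ighd were higher in every PFOA library than in every vehicle library, the IgG genes overlapped, and again no gene passed the test. With edgeR 0 of 66 immunoglobulin genes were called, beside 0.0% of all genes, and with DESeq2 also 0, beside 0.252%. At an unadjusted p under 0.05, 9 of 66 were higher and 0 lower with edgeR, where 3.74% of all tested genes were higher, and 54 of 66 had a positive log2 fold change with a median of 1.14. In 12 of 66 every PFOA library lay above every vehicle library, against 6.82% of all tested genes, and in 0 of 66 below, against 5.99%. Igkc was at 5.07, 9.43 and 20.2 CPM in KO vehicle 137, 145 and 149 and at 43.3, 20.5 and 62.8 CPM in KO PFOA 52, 154 and 155, so the groups did not overlap although 154 was only just above 149 (log2 fold change 1.81 ± 0.56, adjusted p = 0.469). Ighd was at 3.22, 11.3 and 13.8 CPM against 17.4, 23.5 and 37.8 CPM (log2 fold change 1.42 ± 0.64, adjusted p = 0.496). The Ighm log2 fold change was 1.33 ± 0.57 and that of Jchain 1.28 ± 0.60, neither passing the test. The IgG genes overlapped, with Ighg2c at 3, 2 and 7 counts against 7, 0 and 33 counts. Without KO PFOA 155, the library with the most IgG among the 6 labelled KO (111 counts), the log2 fold changes of Ighg2b and Ighg2c changed sign from 0.67 and 1.58 to -0.63 and -0.49. The i5 index of each library was inferred from a number in its deposited column name, where it is not labelled. By that reading, the 3 KO PFOA libraries all carried the same i5 index, which no KO vehicle library did. Index and exposure therefore cannot be told apart in KO. In WT they were partly tied: both vehicle libraries shared their index with WT PFOA 65, but not with WT PFOA 50 or 56.

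In KI lungs, the order was the opposite for most light chain and IgM genes, without a difference beyond the spread. With edgeR and DESeq2 0 of 66 immunoglobulin genes were called, beside 0.0% and 0.00371% of all genes, and the median log2 fold change was -0.50 with 26 of 66 above 0. At an unadjusted p under 0.05, 3 of 66 were lower and 0 higher with edgeR, where 1.12% of all tested genes were lower. Every PFOA library lay above every vehicle library in 2 of 66 (4.45% of all tested genes) and below in 3 of 66 (3.78%). Igkc was at 80.7, 14.6 and 32.3 CPM in KI vehicle 102, 116 and 135 and at 24.9, 25.6 and 23.9 CPM in KI PFOA 57, 80 and 139. The exposed mice thus lay within the range of the vehicle mice, and the fitted log2 fold change of -0.77 ± 0.53 moved to 0.08 without KI vehicle 102. Ighm was at 141, 14.5 and 62.3 CPM against 29.7, 28.4 and 40.2 CPM (log2 fold change -1.14 ± 0.56, adjusted p = 1). Ighg1 was close to absent in KI, with 1, 0 and 1 counts with vehicle and 1, 1 and 2 counts with PFOA.

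**Figure D3:**
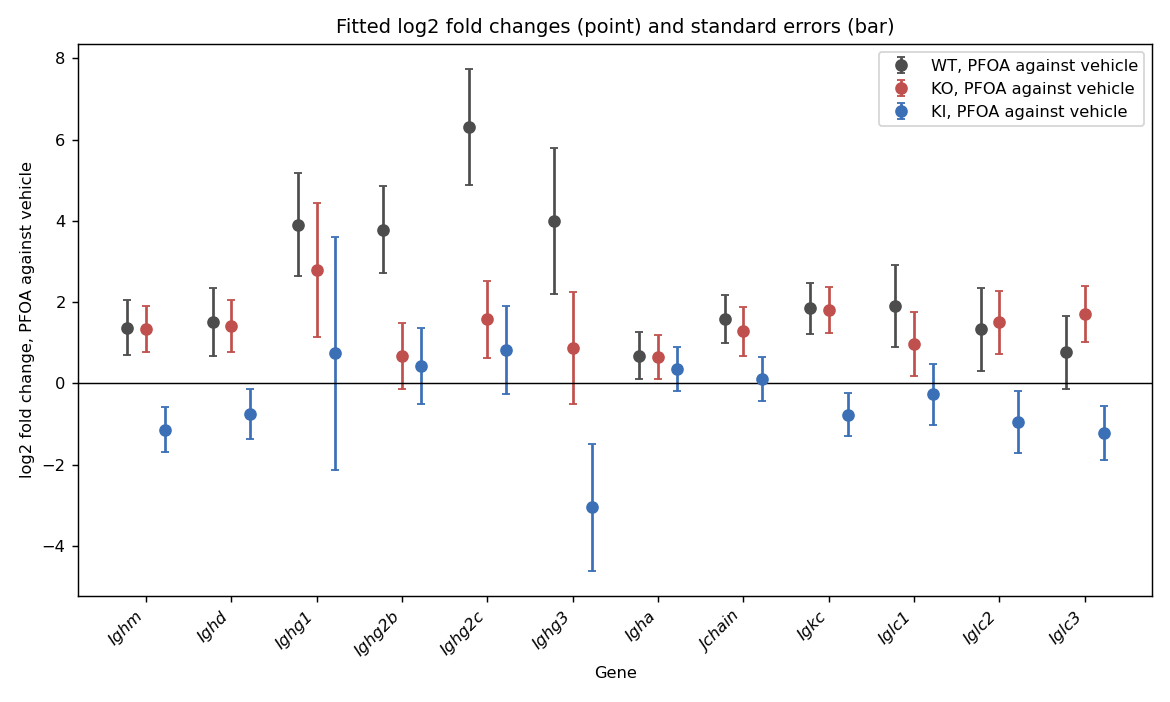
Fitted log2 fold changes of PFOA against vehicle (points) with standard errors (bars) for the 11 constant genes and Jchain in WT (2 vehicle, 3 PFOA), KO and KI (3 and 3 each). WT values lie between 0.69 (Igha) and 6.31 (Ighg2c), and KI values of Ighm, Ighd, Ighg3 and the 4 light chain genes lie below 0.

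Taking the genotypes together, 0 of 66 were called with edgeR or DESeq2, beside 0.0% and 0.0965% of all genes. In that comparison 9 of 66 were higher and 0 lower at an unadjusted p under 0.05, where 3.80% of all tested genes were higher. Ighg1 had a log2 fold change of 3.40 ± 0.96 (adjusted p = 0.436), and Jchain one of 0.94 ± 0.35 (adjusted p = 0.507). When the PFOA effects themselves were compared, the effect in KI minus that in WT was above 0 for 9 of 66 genes. With edgeR and DESeq2 0 of the 66 were called (0.0% and 0.00371% of all genes), 11 were lower and 0 higher at an unadjusted p under 0.05 with edgeR, and 2.39% of all tested genes were lower at that level. The difference was -2.62 ± 0.81 for Igkc and -5.49 ± 1.94 for Ighg2c, both with an adjusted p of 0.999. These values share the WT and KI vehicle libraries with the comparisons above. For the effect in KO minus that in WT, 0 of 66 were called by edgeR or DESeq2, beside 0.0% and 0.0111% of all genes. At an unadjusted p under 0.05, 6 were lower and 2 higher with edgeR, where 4.89% of all tested genes were lower, and the Igkc effects differed by only -0.04 ± 0.82.

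The isotype make-up of the heavy chain pool differed from mouse to mouse. As shares of heavy constant counts per kilobase, IgG took 3.24% and 9.84% in the WT vehicle libraries and 49.3%, 26.7% and 17.9% in WT PFOA 50, 56 and 65. Each exposed WT lung thus had a larger IgG share than both controls. In the 6 libraries labelled KO the share ran from 1.08% to 18.9%, the highest being KO vehicle 137, a library that stood apart, and in the 6 KI libraries from 1.08% to 3.45%. In WT PFOA 50 the IgG was mostly Ighg1, at 35.4% of the pool, whereas in WT PFOA 56 it was mostly Ighg2c, at 19.3%. IgM and IgD together made up 38.7% to 71.0% of the pool in the 5 WT libraries, 59.9% to 94.0% in those labelled KO and 71.7% to 94.1% in KI. Igha took 51.5% in WT vehicle 122 and 3.38% in KO vehicle 145, the extremes of the series.

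**Figure D4:**
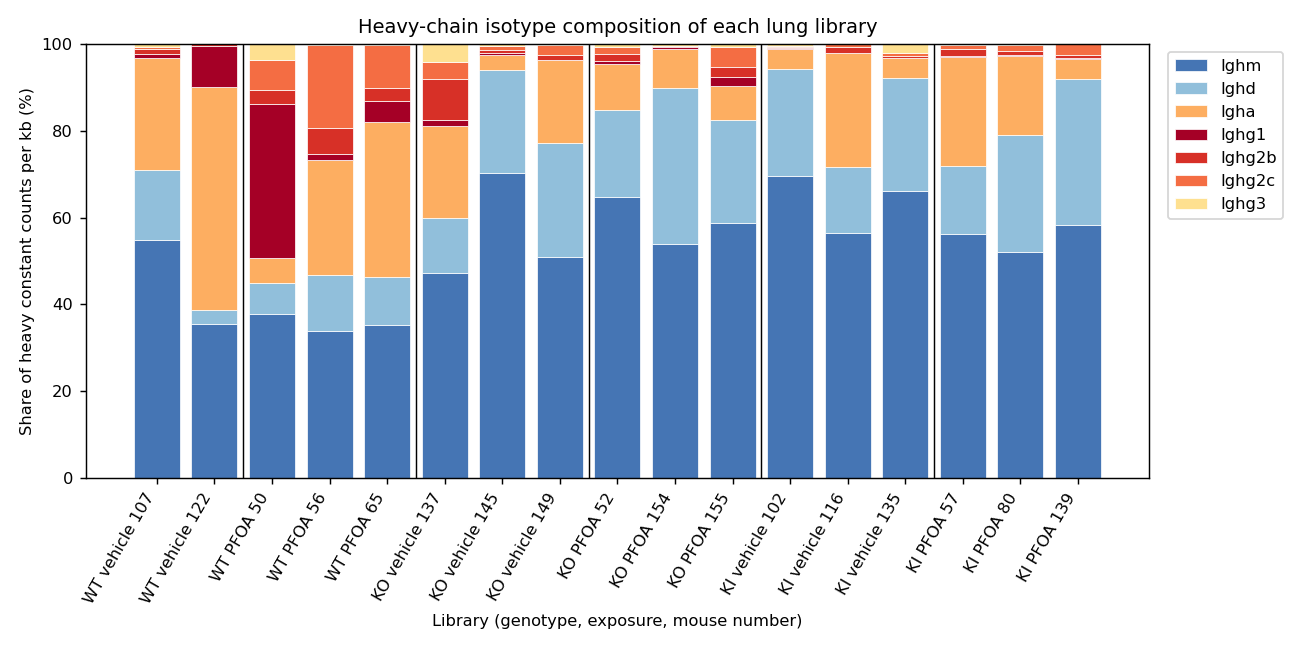
Share of each heavy constant gene in the heavy constant counts per kilobase of exon (y axis, percent) in each of 17 libraries, in order of group. The IgG part (Ighg1, Ighg2b, Ighg2c and Ighg3 together) is largest in WT PFOA 50 (49.3%). The blue IgM and IgD part exceeds 70% in 5 of 6 KO and 6 of 6 KI libraries.

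Light chain use differed as well. Per kilobase, kappa made up 85.1% to 98.4% of light constant counts in WT libraries, 61.0% to 82.7% in those labelled KO and 71.9% to 90.7% in KI. The WT and KO ranges did not overlap, but the lambda counts behind them were few: Iglc1, Iglc2 and Iglc3, the lambda constant genes on chromosome 16, summed to 123, 396 and 279 counts over all 17 libraries. Iglc2 and Iglc3 had a Spearman correlation of 0.83 over the libraries.

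The variable genes together held 3224 counts, 16.5% of the immunoglobulin counts. Their totals ran from 10 to 270 counts per gene, 14 of 99 had a count in at least 14 libraries, and 0 of 99 had a count in all 17. The number with a count was 35 and 23 in WT vehicle and 66, 52 and 77 in WT PFOA, 36 to 50 in KO vehicle, 48 to 74 in KO PFOA, 40 to 71 in KI vehicle and 48 to 54 in KI PFOA. This number rises with the variable counts sampled, which ran from 70 to 664 per library. The effective number of variable genes (the exponential of Shannon entropy, which equals the number of genes if all were equally used) was 56.9 in WT PFOA 65 and 57.2 in KO PFOA 155, but 19.2 in WT PFOA 50 despite its 664 counts. The lowest value, 17.8, was that of WT vehicle 122, with 75 counts. Other variable genes with many counts were Igkv10-96 (123 counts, 30 of them in WT PFOA 56), Igkv1-110 (98), Igkv6-15 (87), Igkv1-117 (76) and Ighv9-3 (72), and the least counted of the 3 lambda variable genes was Iglv2 (25). Of these, Igkv10-96, Igkv1-110 and Iglv3 (67 counts) had a count in 16 libraries each, so that they were seen in nearly every mouse. Igkv8-30, Ighv1-53, Igkv15-103, Igkv12-46, Igkv14-111, Ighv1-55, Ighv3-6, Ighv1-4, Ighv10-1, Ighv5-17, Ighv8-12 and Iglv1 held 34 to 63 counts each. Related variable genes can share reads, which the authors' counting step divided between them by expectation and maximization, and 66 of the 99 shared at least 1 window of 80 bases with another annotated transcript.

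The variable genes with the smallest unadjusted p with PFOA were Igkv10-96, Ighv5-6 and Igkv3-12 in WT, and Igkv1-135, Igkv8-21 and Igkv15-103 in KO. They were Igkv14-126, Ighv11-2 and Ighv2-2 in KI, and Igkv12-41, Igkv6-23 and Igkv15-103 over the genotypes. None of these passed the test, the smallest adjusted p being 0.469 for Igkv1-135. Igkv10-96 had 1 count in each WT vehicle library and 13, 30 and 14 counts with PFOA, so that all exposed WT lungs were above the controls (log2 fold change 3.99 ± 1.17, adjusted p = 0.479). Igkv1-135 had 0 counts in each of the KO vehicle libraries and 5, 4 and 8 counts in the KO PFOA libraries.

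Ighv11-2 and Igkv14-126 appeared together in the same mice. This heavy and kappa pair is known from B-1a cells, a self-renewing B cell type of the body cavities, where it binds phosphatidylcholine. In KI vehicle 102, Ighv11-2 had 32 counts, 21.9% of heavy variable counts (exact 95% interval 15.5% to 29.5%), and Igkv14-126 had 68 counts, 41.0% of kappa variable counts (33.4% to 48.9%). In KO PFOA 52 the counts were 23 and 25, or 19.5% (12.8% to 27.8%) and 21.4% (14.3% to 29.9%). KI vehicle 135 came next with 4 and 9 counts. In the other 14 libraries Ighv11-2 had 0 to 2 counts and Igkv14-126 had 0 to 5 counts. Since KI vehicle 102 and 135 are controls, the fitted PFOA log2 fold changes in KI were -6.78 ± 2.38 and -4.47 ± 1.47, neither called (adjusted p = 1). The pairing of genes within cells is not seen in such counts.

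Between genotypes, over both exposures, 4 of 66 immunoglobulin genes differed in the mice labelled KO against WT, where 2.36% of all tested genes were called, and 2 of 66 in KI against WT, where 1.37% were called. With DESeq2 the numbers were 4 and 2 as well, beside 2.97% and 1.7% of all tested genes. Ighg1 was lower in both: it had 650 counts over the 5 WT libraries, 47 over the 6 labelled KO and 6 over the 6 KI libraries. The log2 fold change was -3.57 ± 0.89 (adjusted p = 0.038) in KO and -6.48 ± 1.17 (adjusted p = 0.0051) in KI against WT. Without WT PFOA 50 these became -1.39, which was no longer called (adjusted p = 0.464), and -4.14, which was. Jchain fell by 1.56 ± 0.42 on the log2 scale in KO against WT (adjusted p = 0.061). It was at 4.26 to 22.1 CPM in WT, 1.49 to 9.12 CPM in the libraries labelled KO and 2.39 to 10.3 CPM in KI, so the ranges overlapped, and the adjusted p was 0.312 with sex and 0.260 with the i5 index in the fit.

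Igkv3-12 had 0 counts in the 6 libraries labelled KO. With these set to a floor of 3 counts over the group, it was 49.6-fold lower there than in WT. The call (adjusted p = 0.097 by edgeR) was carried by the 124 counts of WT PFOA 50, without which WT held 1 count. The call was also lost without KO PFOA 154 (adjusted p = 0.206) and with robust estimation (adjusted p = 0.215). Igkv19-93 went the other way, with 1, 0, 0, 0 and 0 counts in the WT libraries and 4, 1, 1, 5, 3 and 5 counts in those labelled KO (log2 fold change 3.54 ± 1.07, adjusted p = 0.103), a call lost without WT vehicle 122 or WT PFOA 50 (adjusted p = 0.207 and 0.208) and with sex in the fit (adjusted p = 0.224). Ighd rose by 1.82 ± 0.58 on the log2 scale in KI against WT (adjusted p = 0.194). That call was lost without any 1 of the 5 WT libraries, KO vehicle 145 or 149, any KO PFOA library, KI vehicle 102 or 135, or KI PFOA 139, where the log2 fold change ran from 1.29 to 1.998 and the adjusted p from 0.216 to 0.403. It was also lost with the i5 index in the fit (0.90, adjusted p = 0.689), with robust estimation (adjusted p = 0.402) and without both WT vehicle 122 and KO vehicle 137 (1.39, adjusted p = 0.237). Igha was at a log2 fold change of -0.93 ± 0.37 in KO and -0.81 ± 0.37 in KI against WT (adjusted p = 0.266 and 0.479). Between KI and KO 0 of 66 were called with edgeR or DESeq2 (0.00742% and 0.0297% of all genes), and 2 of 66 had an unadjusted p under 0.05 by edgeR, where 4.78% of all tested genes did. When the i5 index was added, of the 4 genes called in KO against WT, Igkv3-12 was still called and the other 3 were not.

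Genes of B cells themselves were higher in both bred lines, in the direction of Ighd and opposite to Ighg1 and Jchain. Of 16 B cell genes, 9 were called higher and 0 lower in KO against WT, where 1.74% of all tested genes were called higher. In KI against WT 8 were called higher and 0 lower, where 0.935% of all tested genes were called higher, and in each contrast 16 of 16 log2 fold changes were positive. Examples are Fcrla, an intracellular Fc receptor-like protein of B cells (log2 fold change 2.42 ± 0.56 in KO and 2.42 ± 0.57 in KI) and Ms4a1, which encodes CD20 (2.03 ± 0.52 in KO, 1.87 ± 0.53 in KI). None of the 16 was called in either contrast once the i5 index was added to the fit. Of all 26946 tested genes, 469 in KO and 322 in KI against WT were called in that fit. Of the 9 B cell genes called in KO against WT, 3 were left without WT vehicle 122 and 4 without KO PFOA 155. All genes called were 461 of 26760 and 517 of 26735 in these refits, against 637 of 26946 in the main fit. Of the 8 called in KI against WT, 1 was left without WT vehicle 122, 2 without KI vehicle 102, 3 without WT vehicle 107 or KI PFOA 139, and 4 without WT PFOA 56 or KI vehicle 135. All genes called in this contrast were 302 of 26760 without WT vehicle 122 and 286 of 26739 without KI vehicle 102. They were 310 of 26749 without WT vehicle 107, 282 of 26781 without WT PFOA 56 and 303 of 26758 without KI vehicle 135. The main fit called 368 of 26946. Summed over the list, B cell genes were at 48.0 to 92.1 CPM in WT, 98.8 to 313 CPM in the libraries labelled KO and 74.3 to 392 CPM in KI. KI vehicle 102, at 392 CPM, was also the highest library for Ighm and Ighd.

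The immunoglobulin genes differed in how they varied from library to library. Over the 17 libraries, given as a description, the Spearman correlation was 0.90 between Ighm and Ighd and 0.81 between Igkc and Jchain, but 0.18 between Ighm and Jchain. Igkc CPM divided by the summed B cell CPM was 0.291 to 1.37 in the 5 WT libraries, 0.0513 to 0.238 in the 6 labelled KO and 0.118 to 0.254 in the 6 KI libraries. Each WT lung thus had more Igkc per B cell transcript than any lung labelled KO or KI, vehicle lungs included. Of the same ratio for Jchain, WT held 0.0643 to 0.287, KO 0.00887 to 0.0336 and KI 0.0105 to 0.0722.

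**Figure D5:**
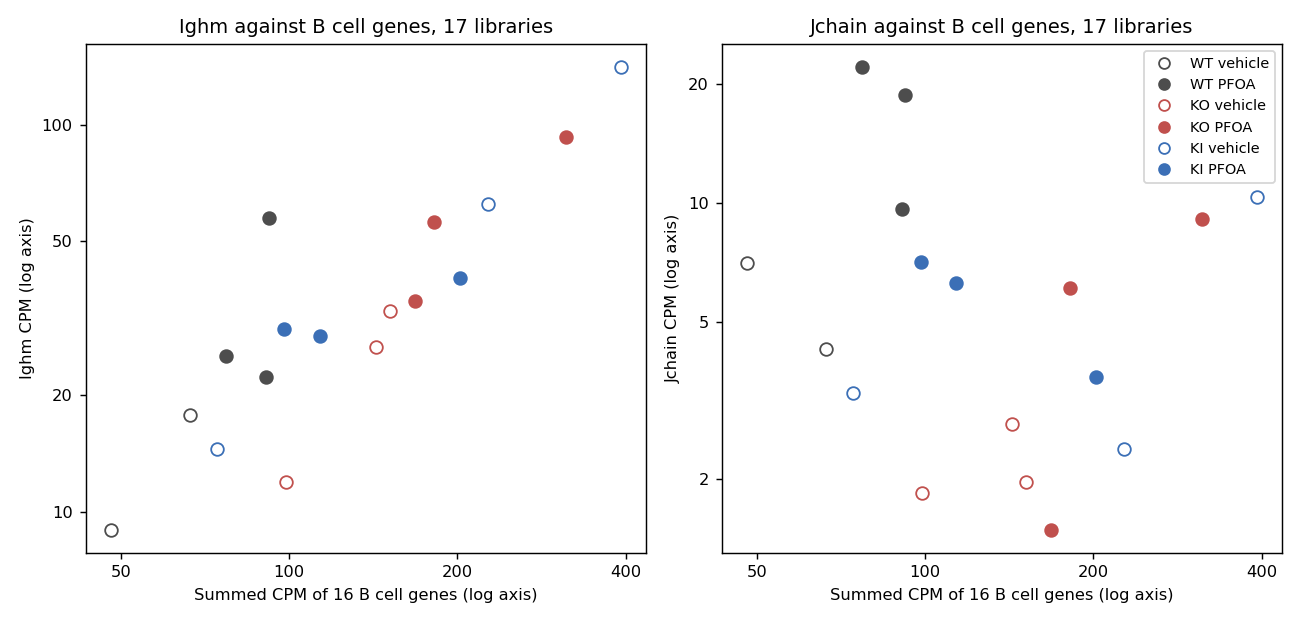
Ighm (left) and Jchain (right) CPM against the summed CPM of 16 B cell genes in 17 libraries, all axes logarithmic; grey WT, red KO, blue KI, open vehicle and filled PFOA. Ighm increases with the B cell sum (48.0 to 392 CPM), whereas the highest Jchain values, 18.8 and 22.1 CPM, are in WT PFOA libraries with B cell sums under 100 CPM.

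None of the plasma cell genes passed the test. Of the 11 on the list 10 were tested, 0 were called in any comparison with edgeR, and the summed level was 204 to 283 CPM throughout, a list that holds genes such as Xbp1 and Sdc1 that lung epithelium also expresses. Tnfrsf17, which encodes the plasma cell receptor BCMA, had 0 counts in 9 of 17 libraries, 9 counts in KO vehicle 137 and 1 or 2 in the others. T cell genes had fold changes of the same sign as most immunoglobulin genes in WT and KO, with 8 of 8 log2 fold changes positive in WT (median 1.05) and in KO (median 0.98) and 5 of 8 in KI (median 0.10). Of these, 4 of 8 in WT and 7 of 8 in KO were higher at an unadjusted p under 0.05 with edgeR. Of all tested genes, 3.12% in WT and 3.74% in KO were higher at that level. In WT, KO or KI, 0 of 8 were called. Their summed level was 15.9 to 22.4 CPM in WT vehicle and 36.6 to 45.7 CPM in WT PFOA, 19.98 to 31.1 against 39.4 to 61.5 CPM in KO, and 26.6 to 39.5 against 24.1 to 43.8 CPM in KI, and its part in the immunoglobulin result was not tested.

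Lists of blood and of other lymphoid tissue were measured beside these. Hemoglobin and other erythroid genes summed to 474 to 1408 CPM in WT vehicle and 845 to 1509 CPM in WT PFOA, 419 to 1063 against 493 to 1678 CPM in KO, and 700 to 2526 against 405 to 2471 CPM in KI. The Spearman correlation of Hbb-bs was 0.24 with Igkc and 0.09 with Ighm. Of 6 thymus genes 4 were tested and 0 called. Foxn1 was not analysed here, Prss16 was under the filter, and the summed level was 2.29 to 4.40 CPM in WT vehicle, 6.43 to 10.8 CPM in WT PFOA and 5.47 to 16.1 CPM in the other 12 libraries, highest in KO vehicle 137. Most of the sum in WT was Themis and Cd8b1, at 1.80 and 0.33 CPM in WT vehicle 122 and 6.72 and 2.66 CPM in WT PFOA 50. Ptcra, Prss16 and Psmb11 were at 1.14, 0.13 and 0.13 CPM in WT PFOA 50. Of 6 genes of lymph node stroma and high endothelial venules, the defining Madcam1 was not analysed here and Glycam1 had 0 counts in 10 of 17 libraries and 1 to 4 counts in the others. Chst4, a sulfotransferase of these venules, was called higher in KO against WT (log2 fold change 1.98 ± 0.57, adjusted p = 0.083), and Clca1, a secreted mucus-associated protein, in KI against WT (5.21 ± 1.45, adjusted p = 0.106). The summed level of this list was 31.1 to 47.1 CPM in WT, 26.5 to 61.5 CPM in KO and 47.3 to 71.2 CPM in KI. Most of it was Enpp2, at 37.4 of 39.7 CPM in WT vehicle 107 and 65.9 of 71.2 CPM in KI PFOA 57. The part of these tissues in the immunoglobulin results was not tested.

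Genes that bind or carry antibodies were not called with PFOA. Of 10 receptors and transporters 9 were tested and 0 called in any genotype. Pigr, which carries polymeric IgA and IgM across epithelium, was at 38.9 and 89.8 CPM in WT vehicle and 31.4, 27.2 and 27.5 CPM in WT PFOA (log2 fold change -1.16 ± 0.40, adjusted p = 0.544). WT vehicle 122, the higher of the control values, is a library that stood apart. Between genotypes, Fcgr2b, the inhibitory IgG receptor, was called higher in KO (log2 fold change 1.19 ± 0.18, adjusted p = 0.000675) and in KI (1.09 ± 0.18, adjusted p = 0.0021) than in WT, and Fcgr3 and Fcer1g were called in KO against WT as well. Of 12 genes of B cell survival and homing and 5 of class switching and hypermutation, 17 of 17 were tested and 0 called in any comparison. Of 7 genes of B cell precursors and V(D)J recombination 3 were tested and 0 called.

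Library quality touched single values. The ratio of variable to constant CPM was 0.713 in KO vehicle 137, against 0.136 to 0.274 in the other 16 libraries, and this library also held the highest count of Tnfrsf17. By the rule of likeness in pattern, the genes outside the family closest to Igkc over 17 libraries were Dolk, Lef1, Fbxo21, Esyt1, Dglucy, Kbtbd11, Hddc3, Btg1, Fkbp3 and Gm6560, with Spearman correlations of 0.84 to 0.78. Closest to Jchain were Plpp3, Rab3d, Fxyd1, Chchd7, Eef2, Gm20056, Klhdc2, Fbxo32, Rpl8 and Tifa, at 0.87 to 0.78. Only genes with at least 340 counts over the 17 libraries were eligible. No gene of the B cell or plasma cell lists was among the 20 genes named. List genes with fewer counts, such as Tnfrsf17 and Mzb1, could not appear.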

How the data were processed

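Lung RNA of 17 mice was sequenced from frozen tissue with a stranded total RNA kit. Per the study's methods, reads were trimmed at the 3′ end, aligned with STAR 2.6 to mm10 (Partek Flow software), then assigned to genes by expectation and maximization; the deposited values are the estimated counts the authors obtained in this way, not normalized, with 31.3% of values not whole. They were rounded. The authors' own tests used DESeq2. Library totals were 4116116 to 9237385 counts, so 3 counts equal 0.319 to 0.691 CPM.

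Genes with 20 or more counts in total (26946 of 31245) were fitted with edgeR 4.0.16 (TMM, quasi-likelihood, 6 groups) in R 4.3.3, and Benjamini-Hochberg adjustment covered every gene fitted. Calls needed an adjusted p under 0.2 and a fold over 2. DESeq2 1.42.0 was an alternative. Contrasts over genotypes or exposures came from a separate fit with additive terms for genotype and exposure. That fit assumes the same PFOA effect in each genotype. Coordinates and transcript sequences are from GENCODE M21 on mm10. The scripts were tested on simulated data. Named genes were the constant genes, Jchain, the most counted variable genes, every called member, the 3 variable genes of smallest p per exposure comparison, and list genes. Members, lists and the naming rule were chosen with earlier results of these data known. Correlations were computed in Python 3.11.15 with scipy 1.17.1. Results for some genes of the lists are not reported here.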

Additional observations from a re-analysis of the deposited data

Results flagged for a closer look

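Igkv14-100, a kappa variable gene, had PFOA effects of opposite direction in WT and KI, with every exposed WT library above both WT vehicle libraries and every exposed KI library below every KI vehicle library. Its counts were 1 and 2 in WT vehicle, 8, 4 and 4 in WT PFOA, 3, 2 and 3 in KI vehicle and 1, 1 and 0 in KI PFOA. The log2 fold changes were 1.57 in WT and -1.995 in KI, a difference of -3.57 with an unadjusted p of 0.053 and an adjusted p of 0.999 by edgeR, so the difference did not pass the test.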

How the results depend on the processing

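No paired analysis was possible because each mouse has its own number and no number is shared between groups. In KO, in KI, between KI and KO and for both differences of PFOA effects, 0 immunoglobulin genes were called under every alternative run. In WT, where 0 were called, DESeq2 called 1 without its filters and 2 with its default filters, and leaving out single libraries gave 0 to 5, the 5 being without WT vehicle 107, where 6.25% of all tested genes were called. Over the genotypes (0 called) DESeq2 with default filters called 1 and leaving out single libraries gave 0 to 1. With those default filters, 56 of 26946 genes were called in WT and 28 over the genotypes. The single call over the genotypes came without KI vehicle 102, where 20 of 26739 genes were called. The 4 calls of KO against WT became 2 with DESeq2 at default filters, with filterByExpr or with sex, 1 with the i5 index or at an adjusted p under 0.05, 8 with the protein-coding share, 7 without both WT vehicle 122 and KO vehicle 137, and 1 to 7 without single libraries. The fewest, 1, were called without WT PFOA 50 and the most, 7, without KO vehicle 137. All genes called numbered 783 of 26946 with DESeq2 at default filters, 555 of 20864 with filterByExpr and 429 of 26946 with sex. Of 26946 genes, 469 were called with the i5 index, 258 at an adjusted p under 0.05 and 797 with the protein-coding share. Those called were 625 of 25367 without both libraries, 533 of 26689 without WT PFOA 50 and 713 of 25574 without KO vehicle 137. The 2 calls of KI against WT became 1 with robust estimation or at an adjusted p under 0.05, 4 without both libraries, and 1 to 3 without single libraries. Of 26946 genes in that contrast, 345 were called with robust estimation, 179 at an adjusted p under 0.05 and 322 with the i5 index. Without both libraries 520 of 25367 genes were called. The following alternatives for genotype contrasts were chosen after seeing the data. The 9 B cell genes called in KO against WT became 0 with the i5 index, 2 at an adjusted p under 0.05 and 3 to 11 without single libraries. The 8 in KI against WT became 0 with the i5 index, 2 with robust estimation, 1 at an adjusted p under 0.05, 5 without both libraries and 1 to 12 without single libraries. The cause was not tested.

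Of 1519 refits of 48 exposure fold changes, 16 turned the direction. No immunoglobulin gene was called in an exposure comparison of the main edgeR fit, so no called gene could turn. With the i5 index, log2 fold changes were 0.072 for Ighd in KI, -0.43 for Igha in KO and -0.025 for Ighg3 over the genotypes. Without single libraries, the ranges were -1.27 to 0.12 for Ighd, -0.074 to 0.75 for Igha, -1.19 to 0.082 for Igkc, -0.70 to 0.48 for Iglc1 and -0.24 to 0.99 for Jchain in KI. In KO they were -0.63 to 1.79 for Ighg2b and -0.49 to 2.20 for Ighg2c. Ighg3 ran from -0.035 to 7.23 in WT and from -0.76 to 1.06 over the genotypes. Without TMM factors the median summed level in WT vehicle was 68.1 CPM. Few counts per variable gene and 2 WT vehicle mice limit what could be detected.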
